A study of Mus musculus with 16 samples.

Results

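Hox genes of mouse neural crest stem cells were followed across 4 states, before priming and after priming to glia, to neurons or to mesenchyme. The set consists of 38 protein-coding genes of the Hoxa, Hoxb, Hoxc and Hoxd clusters. Members were taken from probe sets that carry 1 gene symbol, and where a gene had more than 1 such probe set the one with the highest mean log2 intensity over all 16 arrays was used. By this rule 33 of the 38 members were measured, out of 18194 genes in all. Hoxa6, Hoxc11 and Hoxc12 had no listed probe set, Hoxb8 shared its only probe set with Hoxb7, and Hoxd4 shared both of its probe sets with Hoxd3.

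The cells were primary mouse neural crest cells in a medium for neural crest stem cells, and RNA was hybridised to 16 Affymetrix arrays, 4 per state. The unprimed group is labelled NCSCs, and per the series' design text these were migratory cells. The groups labelled Glia, Autonomic and Mesenchymal are the same kind of cell after exposure to growth factors that instruct a lineage, primed to glia, to neurons and to mesenchyme. The sources used here do not name the factors, the length of exposure, the axial level and stage of the embryos, or the mouse strain. Nothing in the labels says that replicates are separate cultures or litters, so each p-value reflects the spread among the arrays at hand, which may be technical.

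Hox proteins are homeodomain transcription factors whose genes lie in ordered clusters, and the order along a cluster matches the order of expression along the body axis. Genes at one end, with low paralog numbers, are used in the hindbrain and pharyngeal arches, the middle ones at cervical and thoracic levels, and those at the other end at lumbar, sacral and tail levels. Neural crest cells leave the neural tube at nearly every axial level and carry the Hox code of that level with them, while the crest of the first pharyngeal arch expresses no Hox gene. Retinoic acid, Wnt, FGF and Cdx factors switch the clusters on in order, and Pbx, Meis and Pknox proteins bind DNA together with Hox proteins.

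The arrays were alike in overall signal, with array medians between 3.05 and 3.15 on the log2 scale. Arrays of 1 group correlated at 0.896 to 0.949 over all probe sets, and arrays of different groups at 0.898 to 0.948. Of 12 neural crest markers 11 were measured, and 10 of these had a mean above the line for dim signal used below. Their mean lay between 6.14 and 7.31 on 15 arrays and at 4.95 on neuron-primed replicate 1. Markers of the neural tube stood higher on unprimed replicate 4 (mean 6.21), neuron-primed replicate 1 (5.86) and mesenchyme-primed replicate 3 (5.02) than on the other 13 arrays, where their mean was 3.05 to 4.37. All 7 endothelium and blood markers and 8 of 10 mesoderm markers had means below that line, while 3 of 5 epithelium markers had means above it, Krt18 at 5.82, Krt8 at 4.47 and Krt5 at 4.39. In whole-culture RNA, fewer cells of a type and less RNA per cell cannot be told apart.

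The measured Hox signal ended at paralog group 9. Intensities were set against a dim line of 3.74 on the log2 scale, the 90th percentile of the means of 23 genes restricted to other tissues such as milk, sperm and lens genes. Of the 23 measured members of paralog groups 1 to 9, 19 had a mean above this line, and 14 of them were above it on all 16 arrays. All 10 measured members of groups 10 to 13 were below it on all 16 arrays, with values between 0.92 and 3.52. Over all genes, 52.2% had a mean above the line. The sperm protamine gene Prm1 read 6.03 on these arrays, so a value above the line is not proof of expression, and a value below it is not proof of absence.

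**Figure D1:**
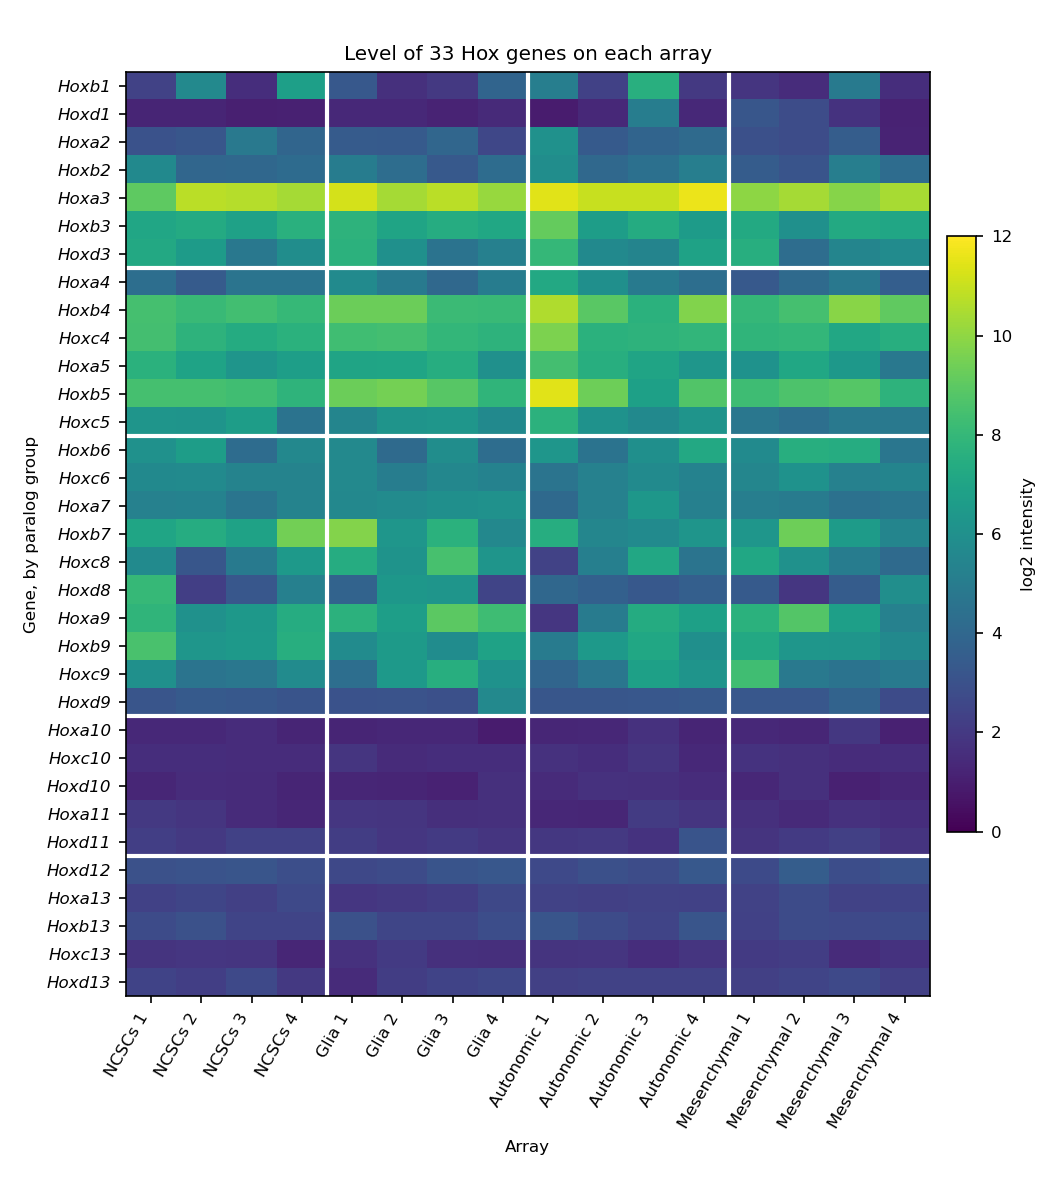
Log2 intensity (colour) of 33 Hox genes (rows, ordered by paralog group from 1 at the top to 13 at the bottom) on each of 16 arrays (columns, 4 per group). White lines part the groups of arrays and paralog groups 1 to 3, 4 and 5, 6 to 9, 10 and 11, and 12 and 13, and the 10 genes of groups 10 to 13 stay at 3.52 or less on every array.

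By axial class, 4 of 7 measured members of groups 1 to 3 had means above the line, 6 of 6 in groups 4 and 5, and 9 of 10 in groups 6 to 9. The 4 members of groups 1 to 9 with means below it were Hoxb1, Hoxd1, Hoxa2 and Hoxd9. By cluster, the members above the line numbered 5 of 9 in Hoxa, 7 of 9 in Hoxb, 5 of 7 in Hoxc and 2 of 8 in Hoxd, where Hoxd3 and Hoxd8 were the 2.

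No member passed the test in any of the 6 pairwise comparisons of the 4 states. Each comparison used limma on all genes, with p-values adjusted by Benjamini-Hochberg over all 18194 genes and a call at an adjusted p under 0.05. Among all genes, the share called was 0.511% for glia-primed against unprimed cells, 0.434% for neuron-primed against unprimed cells and 0.022% for mesenchyme-primed against unprimed cells. Between primed states it was 0.011% for glia against neurons, 0.225% for glia against mesenchyme and 0.346% for neurons against mesenchyme. At an unadjusted limma p under 0.05 the members numbered 0, 2, 1, 2, 2 and 5 of 33 in these comparisons in the same order, or 0%, 6.06%, 3.03%, 6.06%, 6.06% and 15.2%. The same shares over all genes were 9.91%, 9.8%, 7.7%, 6.24%, 7.05% and 8.23%. In 5 of the 6 comparisons the members' share lay below that of all genes, and a p that misses the threshold does not show that a gene held its level.

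Replicates of a state spread widely for the Hox genes with signal. The median residual SD of the 19 members above the dim line was 0.82 on the log2 scale, with a range of 0.33 (Hoxc6) to 1.80 (Hoxd8). It was 0.61 over the 9504 genes above the line. Both values include neuron-primed replicate 1, the array described below, and its part in the spread was not tested. The 14 members at or below the line had a median residual SD of 0.27, and Hoxb1 among them reached 2.06.

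The widest pattern among the arrays lay in a single one, neuron-primed replicate 1. There 10 of 13 measured cervical and hindbrain paralogs stood at their highest and 6 of 10 measured thoracic paralogs at their lowest. To let the reader see the control regions of genes at both ends of this pattern, promoter windows of 4 such members are given, 2 that were highest and 2 that were lowest on that array. They cover the 250 bases before the annotated start, 5′ to 3′ on the gene's strand, from RefSeq on build GRCm38.p6. Positions are chr6:52204588-52204837 on the minus strand for Hoxa5, chr11:96318017-96318266 on the plus strand for Hoxb4, chr6:52218574-52218823 on the minus strand for Hoxa7 and chr6:52227371-52227620 on the minus strand for Hoxa9. Capitals mark matches, on either strand, to the homeodomain core TAAT, the CCAAT box CCAAT, the TATA box TATAAA, the nuclear receptor half-site AGGTCA, and the paired Hox and Pbx motif TGATNNAT.
Hoxa5 promoter: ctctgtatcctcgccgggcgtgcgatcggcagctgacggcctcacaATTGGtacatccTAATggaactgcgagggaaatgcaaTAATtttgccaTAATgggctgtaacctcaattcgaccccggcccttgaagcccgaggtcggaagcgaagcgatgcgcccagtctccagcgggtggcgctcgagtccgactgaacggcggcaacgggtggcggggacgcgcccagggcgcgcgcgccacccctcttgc
Hoxb4 promoter: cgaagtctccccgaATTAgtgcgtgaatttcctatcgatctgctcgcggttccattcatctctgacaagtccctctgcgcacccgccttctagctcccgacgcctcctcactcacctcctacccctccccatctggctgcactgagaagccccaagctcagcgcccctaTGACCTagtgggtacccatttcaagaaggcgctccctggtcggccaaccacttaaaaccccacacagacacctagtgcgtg
Hoxa7 promoter: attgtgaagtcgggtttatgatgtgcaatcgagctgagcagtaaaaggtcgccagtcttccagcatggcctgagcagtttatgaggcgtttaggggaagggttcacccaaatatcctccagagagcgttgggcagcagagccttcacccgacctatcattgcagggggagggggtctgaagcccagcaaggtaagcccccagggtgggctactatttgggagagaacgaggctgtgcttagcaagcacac
Hoxa9 promoter: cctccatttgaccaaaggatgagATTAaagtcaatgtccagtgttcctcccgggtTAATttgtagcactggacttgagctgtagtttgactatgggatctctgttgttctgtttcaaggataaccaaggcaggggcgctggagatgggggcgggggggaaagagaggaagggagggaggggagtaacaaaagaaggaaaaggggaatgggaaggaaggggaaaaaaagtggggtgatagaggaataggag

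The Hoxa5 window held 3 matches to TAAT and 1 to CCAAT, and the Hoxb4 window held 1 to TAAT and 1 to AGGTCA. The Hoxa9 window held 2 matches to TAAT, and the Hoxa7 window held none of the 5 motifs. RefSeq promoter windows were found for 22 of the 38 members, 24 windows in all, with a median GC content of 58.6% against 52.4% over 32851 windows of the genome. TAAT was in 75% of the Hox windows and 54.9% of all windows, CCAAT in 58.3% and 33.8%, AGGTCA in 25% and 14%, TATAAA in 16.7% and 12.4%, and TGATNNAT in 16.7% and 7.68%. Matches with TAAT can overlap those with TGATNNAT. A match is a description of letters and says nothing about binding in these cells.

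On neuron-primed replicate 1, 10 of the 13 measured members of paralog groups 1 to 5 had their highest value of all 16 arrays. These were Hoxa2, Hoxa4, Hoxa5, Hoxb2, Hoxb3, Hoxb4, Hoxb5, Hoxc4, Hoxc5 and Hoxd3. On the same array, 6 of the 10 measured members of groups 6 to 9 had their lowest value of all 16, namely Hoxa7, Hoxa9, Hoxb9, Hoxc6, Hoxc8 and Hoxc9. Hoxd1, which was below the dim line there, was the 1 anterior member at its lowest. Over all genes, 6.71% had their highest and 8.05% their lowest value on this array, and over genes above the dim line 7.71% and 8.27%. The mean deviation from each gene's 16-array mean was 1.71 for groups 1 to 5 and -1.27 for groups 6 to 9, a difference of 2.99. On the other 15 arrays this difference ranged from -1.21 on glia-primed replicate 3 to 0.73 on neuron-primed replicate 2. Since the pattern was seen in the data and then counted, it is a description of 1 array, with no test.

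**Figure D2:**
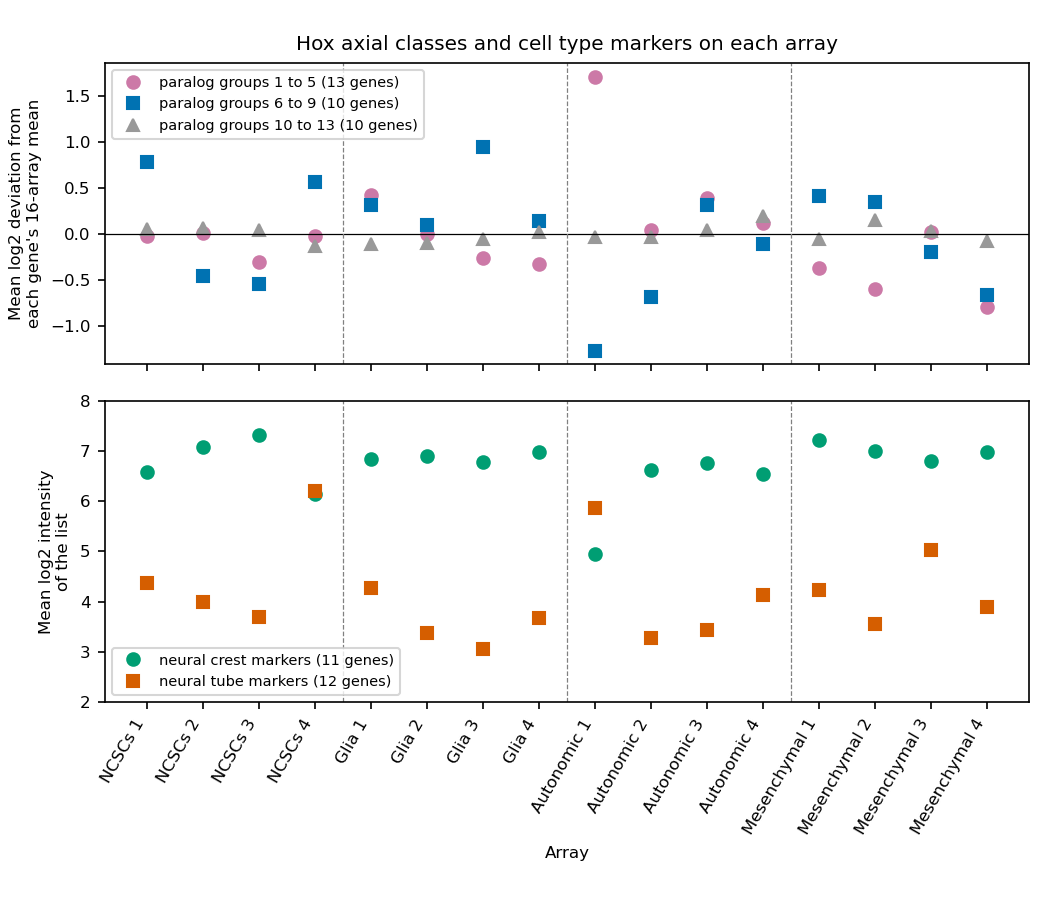
Top, the mean log2 deviation of each axial class of Hox genes from each gene's mean over 16 arrays, by array (circles groups 1 to 5, squares groups 6 to 9, triangles groups 10 to 13). Bottom, the mean log2 intensity of neural crest markers (circles) and neural tube markers (squares) on the same arrays, where neuron-primed replicate 1 (Autonomic 1) has the highest class 1 to 5 value, 1.71, the lowest class 6 to 9 value, -1.27, and the lowest neural crest mean, 4.95.

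The thoracic paralog Hoxa9 showed the widest gap on that array. It read 1.92 there, below the dim line, against 4.97 to 7.39 on the other 3 neuron-primed arrays and 4.97 to 8.99 on all 15 other arrays. Hoxc8, which sets motor neuron pools at brachial levels, read 2.36 there against 4.62 to 7.20 on the other neuron-primed arrays. The thoracic genes Hoxc9 and Hoxb9 read 3.90 and 4.99 there, against 4.70 to 6.81 and 5.97 to 7.13. Hoxb7 went the other way, at 7.48 against 5.49 to 6.25, so the class did not move as a whole. The Hoxd8 probe set used was also higher there, at 3.99 against 3.30 to 3.66. The further Hoxd8 probe set, with a mean of 2.52 below the dim line, was not. That probe set read 2.06 there, below its neuron-primed mean of 2.50.

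At the cervical end, Hoxb5, a factor of vagal and enteric neural crest, read 11.48 on neuron-primed replicate 1 against 6.80 to 9.37 on the other neuron-primed arrays. Hoxb3, which acts with Hoxa3 in the hindbrain and throat, read 9.18 there against 6.60 to 7.40. Hoxc4, a cervical paralog, read 9.64 there against 7.66 to 7.88, and none of the 15 other arrays exceeded 8.42. Hoxa5, which patterns the airway and the neck to thorax border, read 8.41 there against 6.30 to 7.52. Relative to the other 3 neuron-primed arrays, 10 of 13 members of groups 1 to 5 were above all 3, against 22.8% of all genes, and 6 of 10 members of groups 6 to 9 were below all 3, against 29.4% of all genes.

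Further probe sets of the same genes showed much of this pattern. The other probe sets of Hoxa4 and Hoxa5 also had their highest value of 16 on this array, at 6.34 and 8.17. For Hoxc5 one further probe set was highest there, at 7.06, and another ranked 2, at 8.20. The remaining probe set of Hoxb3 ranked 2 at 7.36 and that of Hoxb4 ranked 3 at 6.72. The other Hoxa9 probe set had its lowest value there, 3.97, but by a small margin, since the next array read 3.99, and both further Hoxc6 probe sets lay within the range of the other arrays.

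Cell type markers moved on the same array. Of 11 measured neural crest markers, 7 had their lowest value of 16 there (Erbb3, Ets1, Foxd3, Ngfr, Sox10, Tfap2a and Tfap2b), and 5 of 12 neural tube markers had their highest (Dbx1, Foxa2, Hes5, Irx3 and Pax6). Sox10, the defining factor of migratory crest and glia, read 4.30 there against 8.07 to 8.27 on the other neuron-primed arrays. Pax6, a factor of neural tube progenitors, read 9.54 there, against 2.68 to 8.86 on the other neuron-primed arrays and 9.49 on unprimed replicate 4. Sox1 read 8.69 there, against 2.52 to 3.57 on the other neuron-primed arrays and 9.41 on mesenchyme-primed replicate 3. Of 8 measured Hox cofactors, 3 had their highest value of 16 on this array, against 6.71% of all genes. These were Meis1, Meis2 and Meis3, at 7.48, 8.79 and 9.01. Pbx3, Pbx4 and Pknox2 were below their 16-array means there, at 5.56, 4.66 and 5.62 against 5.84, 4.95 and 7.27. Pbx2 and Pknox1 were slightly above theirs. The other arrays high in neural tube markers did not share the Hox pattern, with a class difference of -0.59 on unprimed replicate 4 and 0.22 on mesenchyme-primed replicate 3. The part of these markers in the Hox values was not tested.

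Against unprimed cells, neuron-primed cells had higher means for all 13 measured members of groups 1 to 5, with a median log2 change of 0.51, and for 4 of 10 members of groups 6 to 9, with a median of -0.28. Without neuron-primed replicate 1, 9 of 13 were higher with a median of 0.06 for groups 1 to 5, and 5 of 10 with a median of -0.04 for groups 6 to 9. With the 3 arrays high in neural tube markers left out together, a choice made after seeing the data, 6 of 13 were higher with a median of -0.01. Over all genes, 50.5% were higher with a median of 0.00.

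**Figure D3:**
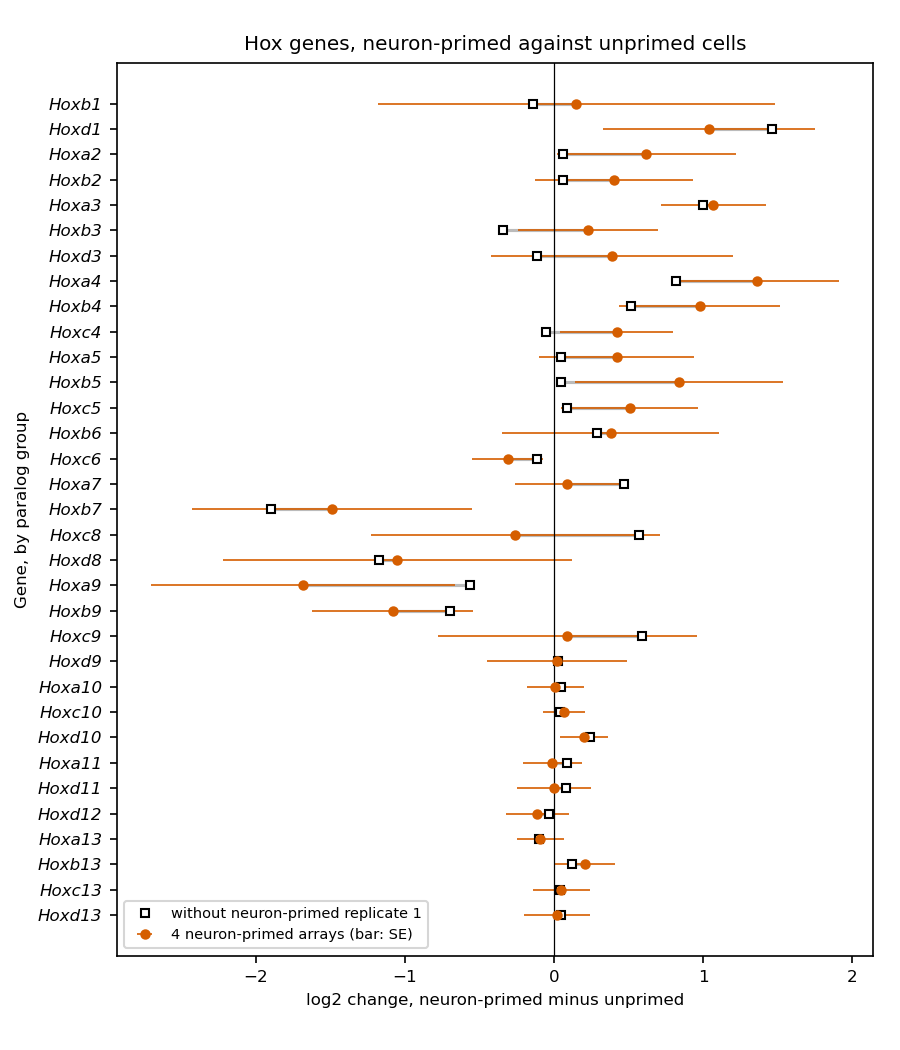
Log2 change of 33 Hox genes (rows, by paralog group) from unprimed to neuron-primed cells with all 4 neuron-primed arrays (filled circles, bars are the standard error) and without neuron-primed replicate 1 (open squares). Most circles of groups 1 to 5 lie right of their square, and Hoxa3 keeps its value, 1.07 with and 1.00 without that array.

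Hoxa3 kept most of its difference between these states without that array. Hoxd1, dim on all arrays but 1, changed by 1.04 with and 1.46 without it, but this rested on neuron-primed replicate 3. Hoxd1 read 0.93, 1.37, 5.10 and 1.36 in neuron-primed cells, and its lowest change over the alternatives was 0.07. Hoxa3 patterns the third pharyngeal arch and its crest, including thymus, parathyroid and carotid body. In replicate order 1 to 4, its log2 intensity was 11.48, 10.97, 10.98 and 11.67 in neuron-primed cells and 9.02, 10.76, 10.65 and 10.38 in unprimed cells. All 4 neuron-primed arrays were above all 4 unprimed ones, and unprimed replicate 1 was low. Such a gap between groups was seen for 1 of 33 members here, against 5.53% of all genes. The log2 change was 1.07 (SE 0.35, limma adjusted p = 0.275), it was 1.00 without neuron-primed replicate 1, and over the 16 leave-one-out fits it ranged from 0.68 to 1.26. The 3 further Hoxa3 probe sets gave changes of 0.62, 1.19 and 0.26, and the latter 2 had means of 3.51 and 2.75, below the dim line. The probe set with 1.19 also gave 1.04 for glia-primed and 1.17 for mesenchyme-primed against unprimed cells.

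Hoxa3 read 9.98, 10.38, 9.80 and 10.45 in mesenchyme-primed cells and 11.23, 10.38, 10.77 and 10.16 in glia-primed cells. The neuron-primed arrays lay above all mesenchyme-primed ones too, by 1.12 on the log2 scale (SE 0.35, limma adjusted p = 0.316). Gaps of that kind between neuron-primed and mesenchyme-primed arrays were found for 2 of 33 members, Hoxa3 and Hoxc5, against 4.17% of all genes. The glia-primed arrays overlapped all 3 other groups. The 3 further Hoxa3 probe sets had neuron-primed means of 7.02, 3.85 and 2.86 and mesenchyme-primed means of 5.70, 3.84 and 2.66.

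Hoxc5, a cervical paralog, was lowest in mesenchyme-primed cells. It read 4.78, 4.37, 4.87 and 4.87 there, 6.24, 6.22, 6.68 and 4.55 in unprimed cells, 5.46, 6.21, 6.30 and 5.69 in glia-primed cells and 7.72, 6.13, 5.71 and 6.19 in neuron-primed cells. The mesenchyme-primed arrays lay below every glia-primed and neuron-primed array, and unprimed replicate 4 fell among them. The log2 change was 1.72 for neurons against mesenchyme (SE 0.46, limma adjusted p = 0.176) and 1.19 for glia against mesenchyme (SE 0.46, adjusted p = 0.586). It was -1.20 for mesenchyme against unprimed cells (SE 0.46, adjusted p = 0.537).

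Of all members and alternatives, the lowest adjusted p belonged to Hoxc5, neurons against mesenchyme, at 0.0582 with the 3 arrays high in neural tube markers left out, one of them the low unprimed replicate 4. For that contrast its adjusted p ran from 0.0582 to 0.639 over the alternatives. Its 2 further probe sets had lower means in mesenchyme-primed than in unprimed cells as well, by changes of -0.70 and -1.02. Their means were 5.01 and 3.66 in mesenchyme-primed, 5.25 and 3.99 in glia-primed and 5.75 and 4.53 in neuron-primed cells. The probe set used gave 4.72, 5.91 and 6.44 in these states, so gaps to mesenchyme-primed cells were smaller for the 2 further probe sets. Their neuron-primed means differed from the unprimed ones by 0.04 and -0.16, against 0.51 for the probe set used, a value that ran from -0.37 to 0.77 over the alternatives.

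Hoxa4, which acts with Hoxb4 and Hoxd4 in the cervical spine and hindbrain, had the largest change of the anterior class in neuron-primed cells. Its values were 7.26, 5.96, 4.91 and 4.34 in neuron-primed cells, 4.33, 3.44, 4.64 and 4.61 in unprimed cells, 5.75, 4.94, 4.07 and 5.04 in glia-primed cells and 3.36, 4.16, 4.80 and 3.59 in mesenchyme-primed cells. Neuron-primed replicates 1 and 2 exceeded all other arrays, and replicates 3 and 4 lay within the unprimed range or just above it. The change from unprimed cells was 1.36 (SE 0.55, limma adjusted p = 0.423), and 0.82 without neuron-primed replicate 1. The further Hoxa4 probe set, with a mean of 3.41 below the dim line, gave a change of 1.81 with neuron-primed replicate 1 included. That array was its highest, at 6.34.

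Hoxb4, a cervical paralog that blood stem cells also use, read 10.59, 8.93, 7.65 and 9.72 in neuron-primed cells and 8.45, 8.13, 8.37 and 8.05 in unprimed cells. It read 9.30, 9.29, 8.16 and 8.15 in glia-primed cells and 7.98, 8.47, 9.86 and 9.08 in mesenchyme-primed cells. Unprimed arrays were close together, while the primed ones spread both above and below them. The change was 0.98 for neuron-primed against unprimed cells (SE 0.54, limma adjusted p = 0.606), and it was 0.52 without neuron-primed replicate 1. The further Hoxb4 probe set gave 2.34 for neuron-primed, 2.32 for glia-primed and 1.56 for mesenchyme-primed against unprimed cells, where the probe set used gave 0.98, 0.48 and 0.60.

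Hoxa2, the selector of second-arch crest, had a mean of 3.51, below the dim line, with 6 of 16 arrays above it. It read 2.91, 2.77, 3.54 and 1.18 in mesenchyme-primed cells, 3.01, 3.19, 4.85 and 3.91 in unprimed cells, 3.43, 3.41, 3.96 and 2.57 in glia-primed cells and 6.05, 3.41, 3.87 and 4.13 in neuron-primed cells. All mesenchyme-primed arrays were below the line, and their range overlapped that of the unprimed arrays. The change was -1.14 for mesenchyme-primed against unprimed cells (SE 0.60, limma adjusted p = 0.697), of rough size at such dim signal.

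**Figure D4:**
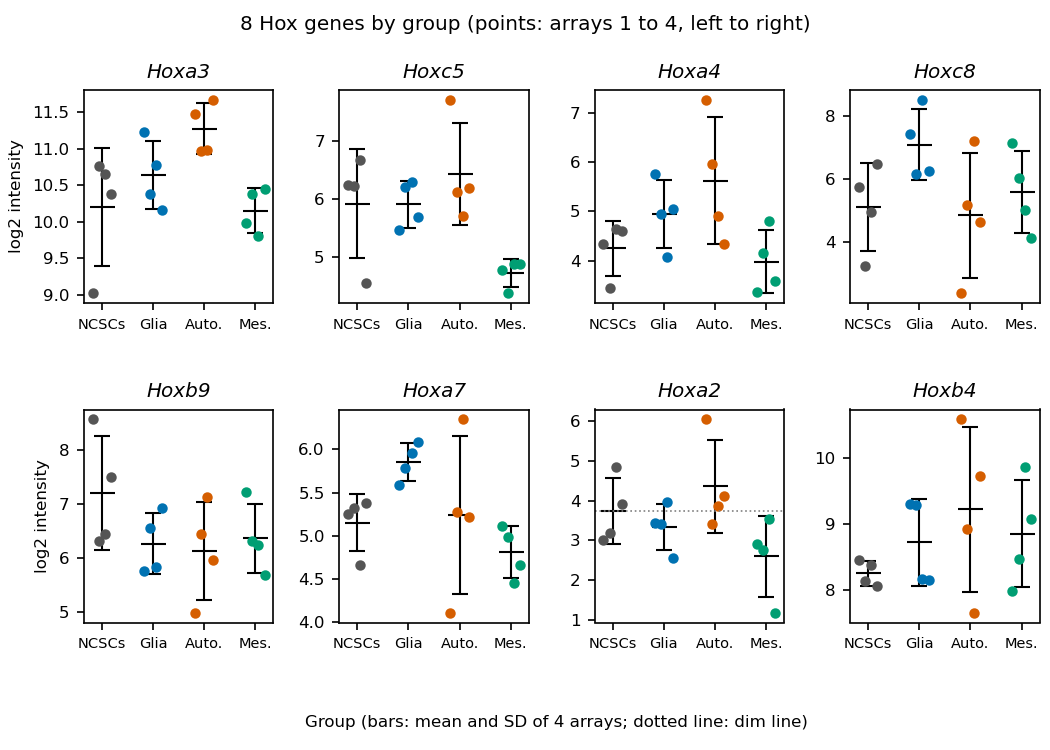
Log2 intensity of 8 Hox genes on each array (points, replicates 1 to 4 from left to right) in unprimed (NCSCs), glia-primed, neuron-primed (Auto.) and mesenchyme-primed (Mes.) cells, with bars for the mean and SD of 4 arrays, an axis range of its own in each panel, and a dotted dim line at 3.74 for Hoxa2. Groups part without overlap for Hoxa3 (neuron-primed above unprimed and mesenchyme-primed), Hoxc5 (mesenchyme-primed below glia-primed and neuron-primed) and Hoxa7 (glia-primed above unprimed and mesenchyme-primed).

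The hindbrain gene Hoxb1, a direct target of retinoic acid that defines rhombomere identity, varied most among the anterior members. It read 2.38, 5.66, 1.56 and 6.78 in unprimed cells, 3.32, 1.65, 2.01 and 3.89 in glia-primed cells, 5.12, 2.30, 7.56 and 2.01 in neuron-primed cells and 1.86, 1.54, 4.89 and 1.57 in mesenchyme-primed cells. In every state 1 or 2 arrays were above the dim line and the others below it. Hoxd1, which shapes sensory neuron projections, was above the line on 1 array, neuron-primed replicate 3 at 5.10, the array where Hoxb1 was also highest. On the other 15 arrays Hoxd1 lay between 0.93 and 3.19.

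The remaining anterior members gave means that overlapped between states. Hoxb2, a factor of facial motor neurons, ranged from 3.14 to 5.90 over the arrays, Hoxd3 over a span of 3.70, and Hoxb3 from 6.03 to 9.18. Mesenchyme-primed replicate 2 had the lowest value of all 16 arrays for 5 of 13 measured members of groups 1 to 5, against 5.64% of all genes. These were Hoxb1, Hoxb2, Hoxb3, Hoxc5 and Hoxd3. Among groups 6 to 9, Hoxd8 was also lowest there, while Hoxb6 and Hoxc6 were highest. Hoxc4 ranged from 7.21 to 9.64, Hoxa5 from 4.81 to 8.41 and Hoxb5 from 6.80 to 11.48. Hoxa5 was 1.19 higher in neuron-primed than in mesenchyme-primed cells (SE 0.52, limma adjusted p = 0.561), and 0.82 higher without neuron-primed replicate 1.

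Mesenchyme-primed cells had lower means than unprimed cells for 10 of 13 members of groups 1 to 5, with a median log2 change of -0.31, against -0.01 over all genes. Without the 3 arrays high in neural tube markers the count was again 10 of 13, with a median of -0.33. In groups 6 to 9, 6 of 10 members were higher, with a median of 0.04. None of the 33 members had mesenchyme-primed arrays that all lay above or below the unprimed ones, against 5.69% of all genes. Neuron-primed means were above mesenchyme-primed ones for 12 of 13 members of groups 1 to 5, with a median of 0.88, or 0.54 and 10 of 13 without neuron-primed replicate 1. Glia-primed means were above mesenchyme-primed ones for 11 of 13, with a median of 0.47. These contrasts share the mesenchyme-primed arrays, so they are not separate observations.

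Among the thoracic paralogs, Hoxa7 was higher in glia-primed cells. It read 5.59, 5.79, 5.96 and 6.09 there, 5.25, 5.32, 4.66 and 5.38 in unprimed cells, 5.12, 4.99, 4.46 and 4.66 in mesenchyme-primed cells and 4.11, 5.28, 6.35 and 5.22 in neuron-primed cells. Every glia-primed array was above every unprimed and every mesenchyme-primed array, and the neuron-primed arrays spanned the range of all groups. Hoxa7 was the 1 member without overlap between glia-primed and unprimed arrays, against 7.18% of all genes. Between glia-primed and mesenchyme-primed arrays 2 members did not overlap, Hoxa7 and Hoxc5, against 4.55% of all genes. The Hoxa7 change was 0.70 against unprimed cells (SE 0.35, limma adjusted p = 0.541) and 1.05 against mesenchyme-primed cells (SE 0.35, adjusted p = 0.48), or 0.157 as adjusted p of the latter without neuron-primed replicate 1.

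Hoxc8 had the largest change of any member against unprimed cells. It read 7.43, 6.16, 8.53 and 6.25 in glia-primed cells, 5.75, 3.22, 4.94 and 6.47 in unprimed cells, 2.36, 5.18, 7.20 and 4.62 in neuron-primed cells and 7.16, 6.05, 5.02 and 4.13 in mesenchyme-primed cells. The lower glia-primed arrays overlapped unprimed replicate 4, and glia-primed replicate 3 was the highest of 16. The change was 2.00 (SE 0.97, limma adjusted p = 0.518) against unprimed and 2.26 (SE 0.97, adjusted p = 0.779) against neuron-primed cells, the latter falling to 1.43 without neuron-primed replicate 1.

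Hoxb9, a thoracic paralog, was highest in unprimed cells by its mean. It read 8.57, 6.32, 6.45 and 7.51 there, 4.99, 6.45, 7.13 and 5.97 in neuron-primed cells, 5.77, 6.56, 5.84 and 6.92 in glia-primed cells and 7.23, 6.31, 6.24 and 5.69 in mesenchyme-primed cells. Unprimed replicates 1 and 4 exceeded all primed arrays, while replicates 2 and 3 lay among them. The change in neuron-primed cells was -1.08 (SE 0.54, limma adjusted p = 0.548), and -0.70 without neuron-primed replicate 1.

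Hoxa9, named here after its values were seen, read 7.71, 6.73, 8.99 and 8.27 in glia-primed cells and 1.92, 4.97, 7.39 and 6.80 in neuron-primed cells. It read 7.87, 6.09, 6.39 and 7.44 in unprimed cells and 7.67, 8.78, 6.76 and 5.29 in mesenchyme-primed cells. Its change of 2.65 between glia-primed and neuron-primed cells (SE 1.02, limma adjusted p = 0.748) was 1.54 without neuron-primed replicate 1. The further Hoxa9 probe set, with group means of 4.64 and 4.76 in these states, showed no such gap. Between glia-primed and neuron-primed arrays none of the 33 members was without overlap, against 2.96% of all genes.

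The other members of groups 6 to 9 varied from array to array without parting the states. Hoxd8 read 8.02, 2.23, 3.28 and 5.23 in unprimed cells, a span wider than that of any other member in that state, but 3.30 to 3.99 in neuron-primed cells. Hoxb7 ranged from 5.48 to 9.77 over all arrays, Hoxb6 from 4.15 to 7.53 and Hoxc9 from 3.90 to 8.34. Hoxc6, used at forelimb and upper thoracic levels, was the steadiest member above the dim line, between 4.63 and 6.11. Hoxd9 was above the line on 2 arrays, glia-primed replicate 4 at 5.67 and mesenchyme-primed replicate 3 at 3.80.

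Glia-primed cells compared with neuron-primed cells had lower means for all 13 members of groups 1 to 5, with a median log2 change of -0.63, and higher means for 9 of 10 members of groups 6 to 9, with a median of 0.65. Without neuron-primed replicate 1 the figures were 10 of 13 lower with a median of -0.12, and 7 of 10 higher with a median of 0.32. Against unprimed cells, glia-primed cells had higher means for 7 of 13 members of groups 1 to 5 and 6 of 10 of groups 6 to 9, with medians of 0.11 and 0.23. Over all 33 members the median change of glia-primed against unprimed cells was 0.02, against -0.01 over all genes.

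The lumbar, sacral and tail paralogs of groups 10 to 13 gave no signal above the dim line in any state. Hoxa10, Hoxc10 and Hoxd10, which suppress ribs at lumbar levels, lay between 0.92 and 1.96. Hoxa11 and Hoxd11, sacral and limb genes, lay between 1.27 and 3.12. Hoxa13, Hoxb13, Hoxc13 and Hoxd13, genes of the tail, hindgut and digits, lay between 1.30 and 3.18, and Hoxd12 between 2.61 and 3.52. Log2 changes of this class against unprimed cells lay between -0.26 and 0.21 in the 3 primed states.

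Genes that act with or above the Hox clusters were read from lists chosen with earlier results of these data known. Of 9 Pbx, Meis and Pknox cofactors 8 were measured, all with means above the dim line, and none passed the limma test in any of the 6 comparisons. At an unadjusted p under 0.05 there were 1, 1, 2, 1, 1 and 2 of 8. These were 12.5%, 12.5%, 25%, 12.5%, 12.5% and 25%, against 9.91%, 9.8%, 7.7%, 6.24%, 7.05% and 8.23% of all genes. Pknox2, a homeodomain partner of Pbx, read 5.62, 6.33, 6.47 and 5.45 in neuron-primed cells and 7.53, 7.14, 8.06 and 8.52 in unprimed cells. All neuron-primed arrays were below all unprimed ones, a gap seen for 1 of 8 cofactors in this comparison, against 5.53% of all genes. The change was -1.84 (SE 0.61, limma adjusted p = 0.281). Meis3, a hindbrain cofactor, read 6.02, 6.54, 5.80 and 5.84 in glia-primed cells and 8.35, 7.82, 6.30 and 6.75 in unprimed cells, a change of -1.26 (SE 0.59, adjusted p = 0.503).

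Of 29 upstream regulators of the clusters 28 were measured, and 2 fell in glia-primed against unprimed cells with none rising, against 0.511% of all genes called. Limma called 1 of them for glia against mesenchyme, against 0.225% of all genes, and 0 in the other 4 comparisons. At an unadjusted p under 0.05 the 6 comparisons gave 8, 8, 3, 2, 2 and 0 of 28. These were 28.6%, 28.6%, 10.7%, 7.14%, 7.14% and 0%, against 9.91%, 9.8%, 7.7%, 6.24%, 7.05% and 8.23% of all genes. The 2 sets of shares are not like for like, since this list was chosen with earlier results known. In addition, 20 of the 28 had means above the dim line, against 52.2% of all genes. Rdh10, which makes the retinal from which retinoic acid is formed, read 4.25, 5.01, 3.09 and 3.65 in glia-primed cells and 8.05, 7.72, 8.27 and 7.50 in unprimed cells. Its log2 change was -3.89 (SE 0.41, limma adjusted p = 0.000311), and the highest adjusted p over the alternatives was 0.0119. With the mean of all its probe sets the change was -2.34 (adjusted p = 0.00699). Rdh10 read 5.65, 6.23, 6.55 and 7.33 in neuron-primed cells and 7.04, 7.70, 7.16 and 6.62 in mesenchyme-primed cells. Every glia-primed array was below every array of the other states.

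Rdh10 was also called lower in glia-primed than in mesenchyme-primed cells, with a difference of -3.13 on the log2 scale (SE 0.41, limma adjusted p = 0.00418). With the mean of all its probe sets in place of the brightest, this difference was -1.77 and the adjusted p 0.059. Nr6a1, an orphan nuclear receptor that acts on trunk Hox genes and the number of vertebrae, read 7.57, 4.62, 6.14 and 6.42 in glia-primed cells and 9.33, 10.07, 9.04 and 9.32 in unprimed cells. Its change was -3.25 (SE 0.51, limma adjusted p = 0.0114). The adjusted p was 0.0646 when only these 2 groups were fitted, and with the mean of all its probe sets the change was -2.02 (adjusted p = 0.016). The neuron-primed arrays read 6.63 to 8.45 and the mesenchyme-primed ones 6.67 to 7.42, all of them below the unprimed arrays, with changes of -1.70 (adjusted p = 0.209) and -2.38 (adjusted p = 0.168). In neuron-primed against unprimed cells the largest moderated t of this list belonged to Lin28a, an RNA-binding protein of early embryonic cells, with a change of -1.82 (SE 0.51, adjusted p = 0.179).

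All 11 paraHox and Hox-adjacent homeobox genes were measured, 2 of them with means above the dim line, and limma called none in any comparison. At an unadjusted p under 0.05 there was 1 (9.09%) for neuron-primed against unprimed cells, against 9.8% of all genes, and 0 in the other 5 comparisons. That gene was Meox1, a somite factor, with a change of -1.80 in neuron-primed cells (SE 0.78, adjusted p = 0.462). Of 16 noncoding genes of the clusters 2 were measured, and neither was called. Hoxb5os, transcribed from the opposite strand near Hoxb5, read 9.27, 9.06, 9.69 and 8.17 in neuron-primed and 10.04, 9.79, 9.33 and 10.49 in unprimed cells, a change of -0.87 (SE 0.33, limma adjusted p = 0.371, unadjusted p = 0.0182). The groups overlapped for it, and on neuron-primed replicate 1, where Hoxb5 was highest of 16, Hoxb5os was not.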

How the data were processed

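Total RNA (2 ug per sample) was labelled with a one-cycle kit, per the labels' protocols. The authors deposited an RMA intensity for each probe set on each array, per the submitters' processing notes, with no version given. These intensities are on a linear scale, so log2 was taken here with no offset. For arrays the number of samples limits the precision. Of 45101 probe sets, 34958 carried 1 gene symbol, 932 several and 9211 were not listed, and the latter 2 kinds were left out. Symbols were updated through Entrez identifiers to a RefSeq table of GRCm38.p6, which matched 99.4%.

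The means of the 4 groups were modelled over all 16 arrays with limma 3.58.1 (R 4.3.3). Its two-sided moderated test was corrected by Benjamini-Hochberg across 18194 genes in each of 6 comparisons. The scripts were tested on simulated data. Members and gene lists were chosen with earlier results of these data known, so no score over members was tested. Values on every array are given for members called in any comparison, then for those without overlap between primed and unprimed arrays and a change of at least 2-fold, filled up to 8 by the largest moderated t against unprimed cells. Of each pathway list up to 4 called genes are named, otherwise those with the largest moderated t. Other genes were named after their values were seen. Same-numbered arrays of different groups had residual correlations of -0.067 to 0.064, so the numbers were not taken to pair samples. Alternatives were a replicate block, other scalings, offsets, filters, probe set choices and eBayes settings, array weights, separate fits per comparison, and omission of each array in turn. Leaving out 3 arrays together was added after seeing the data. Scanner files were not used here, and the genome build of the probe sets is not given in the sources used here.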

Additional observations from a re-analysis of the deposited data

Results flagged for a closer look

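In 12 of 132 groups of 4 arrays, the highest or lowest array stood apart from the other 3 by Dixon's criterion, the gap to the nearest array over the group's range, which marks about 5% of groups by chance. In 8 of the 12 the array's value was above the dim line of 3.74. All values are log2 intensities.

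Among hindbrain and cervical genes, Hoxb1 read 4.89 on mesenchyme-primed replicate 3 against 1.54 to 1.86 on the others of its group, and Hoxd1 read 5.10 on neuron-primed replicate 3 against 0.93 to 1.37. Hoxb2 was high on unprimed replicate 1, at 5.69 against 3.95 to 4.21. Hoxb3 was low on mesenchyme-primed replicate 2, at 6.03 against 7.09 to 7.29. Hoxc4 was high on neuron-primed replicate 1, at 9.64 against 7.66 to 7.88, and Hoxb5 was low on unprimed replicate 4, at 7.79 against 8.34 to 8.45.

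Among thoracic genes, Hoxc9 read 8.34 on mesenchyme-primed replicate 1 against 4.58 to 4.94, and Hoxd9 read 5.67 on glia-primed replicate 4 against 2.95 to 3.06. Both genes were thus well above their own group on 1 array each.

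The 4 others were below the dim line. Hoxa10 read 1.70 on neuron-primed replicate 3 against 1.26 to 1.32, and Hoxd11 read 3.12 on neuron-primed replicate 4 against 1.75 to 1.98. Hoxa13 read 2.72 on mesenchyme-primed replicate 2 against 2.36 to 2.42. Hoxd13 read 2.27 on neuron-primed replicate 1 against 2.37 on each of the others, a gap of little size on a tight group. Neuron-primed replicate 1 accounts for 2 of the 12.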

How the results depend on the processing

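No member was called in any of the 6 comparisons under any of 27 alternatives (26 planned and 1 added after seeing the data), and the lowest adjusted p of limma was 0.0582. With the replicate number as a block the count was 0 in every comparison, and the lowest adjusted p of a member for neuron-primed against unprimed cells was 0.377. For each of the 8 members followed array by array, the change against unprimed cells with the largest moderated t kept its direction under each alternative run. The Hoxc5 change of 0.51 for neuron-primed against unprimed cells did not, with a range of -0.37 to 0.77. Hoxa2 could not be fitted among genes above the median gene.

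With only genes above the median gene, which leaves 19 members, the median log2 change over members was 0.38 for neuron-primed and -0.28 for mesenchyme-primed against unprimed cells, 0.47 for glia against mesenchyme and 0.43 for neurons against mesenchyme. Over all 33 members these were 0.09, -0.05, 0.24 and 0.04. The smaller set is the change made here. It leaves out the 10 dim members of groups 10 to 13 and also Hoxa2, Hoxb1, Hoxd1 and Hoxd9.

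Calls over all genes moved more. For neuron-primed against unprimed cells 79 genes were called, 237 without neuron-primed replicate 1, 63 with the replicate block and 17 when only these groups were fitted. For neurons against mesenchyme the counts were 63, 141, 46 and 26, and for glia-primed against unprimed cells 93, 168, 52 and 60. For glia against mesenchyme they were 41, 68, 22 and 29, for mesenchyme-primed against unprimed cells 4, 1, 6 and 0, and for glia against neurons 2, 7, 2 and 0. Differences in dim members have rough sizes.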
